A study of Mus musculus with 9 samples.

Results

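The genes described here encode 4 subunits of the phagocyte NADPH oxidase: Cybb, Cyba, Ncf1 and Ncf4. They were given by name, and all 4 were found among the 45777 genes of the tables. All 4 were also among the 13820 genes that reached a level of 1 TPM (transcripts per 1000000 transcripts) in at least 3 of 9 samples and were tested.

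The oxidase moves electrons from NADPH across a membrane onto oxygen and so makes superoxide, which phagocytes use to kill microbes and which also acts as a signal. Cybb encodes the catalytic subunit gp91phox (NOX2) and Cyba its partner p22phox, which together form the membrane flavocytochrome b558. Ncf1 encodes p47phox, the organizer that becomes phosphorylated and docks the cytosolic complex on p22phox. Ncf4 encodes p40phox, another cytosolic subunit, which binds a phosphoinositide of the phagosome membrane. In the liver, Kupffer cells, monocyte-derived macrophages and neutrophils are the main carriers of this enzyme.

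RNA came from mouse liver cells isolated by CD11b, the integrin alpha chain of myeloid cells, and was sequenced in bulk. All 9 samples came from mice given acetaminophen (APAP) into the peritoneum to cause acute liver failure, with livers taken 48 hours later. The groups of 3 samples differed in what was given 8 hours after APAP: vesicles carrying SIRP from HEK cells (HEK-EV), vesicles carrying SIRP from MSC (MSC-EV), both given into a vein, or PBS in the control group (PBS). The labels do not spell out SIRP or MSC, and they do not give the strain, sex, age or dose, or whether livers were pooled. Here SIRP is taken to be signal regulatory protein, HEK a human embryonic kidney line and MSC mesenchymal stem or stromal cells. Uninjured livers and vesicles without SIRP were not analysed here, so every value is a level after APAP. Nothing states that the replicates were separate animals, and p-values measure only the spread between these samples.

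The tables hold no read counts, so depth is unknown. The ratio of coverage to FPKM, which scales with it, was 4.90 to 5.87 in PBS, 5.80 to 6.01 in HEK-EV and 6.11 to 6.36 in MSC-EV. Every MSC-EV sample was above all other samples in this ratio. A fit with the ratio as a covariate therefore cannot separate depth from group. Itgam, the gene of CD11b, was present at 196 to 434 TPM in every sample, and Ptprc, the gene of the general leukocyte marker CD45, at 418 to 669 TPM. HEK-EV replicate 2 and MSC-EV replicate 3 stood apart through pancreatic acinar transcripts, whose 17 listed genes summed to 1262 and 3535 TPM in them, against 13.3 to 164 TPM in the other 7 samples. PBS replicate 1 stood apart from its group by a monocyte marker sum of 6759 TPM, against 12718 and 13107 TPM in the other PBS samples. Values without these libraries follow the results on Ncf4, the subunit ratios and the pathway genes.

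The start-site sequences of members with a known entry are shown so that their upstream regions can be compared by eye. Any part of these sequences in differences between groups was not tested. RefSeq's promoter table for GRCm38.p6 had an entry for 3 of the 4 members, Cybb, Cyba and Ncf1, and none for Ncf4. Each sequence below is 150 bases, from 130 bases before the start site to 20 bases from it, 5′ to 3′ on the gene's strand. Capitals mark exact matches on either strand to 4 short motifs. They are GAGGAA, a core bound by PU.1 and other ETS factors; the box spelled CCAAT, bound by NF-Y; the GC box of Sp1, spelled GGGCGG; and the TATA box, spelled TATAAA.
Cybb, chrX:9469305-9469454, minus strand: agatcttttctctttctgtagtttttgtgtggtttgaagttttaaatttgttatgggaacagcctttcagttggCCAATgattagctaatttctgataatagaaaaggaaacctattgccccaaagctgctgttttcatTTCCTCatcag
Cyba, chr8:122432921-122433070, minus strand: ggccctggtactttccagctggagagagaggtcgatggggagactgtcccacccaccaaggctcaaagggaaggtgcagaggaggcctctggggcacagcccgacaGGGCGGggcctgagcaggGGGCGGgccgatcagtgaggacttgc
Ncf1, chr5:134229606-134229755, minus strand: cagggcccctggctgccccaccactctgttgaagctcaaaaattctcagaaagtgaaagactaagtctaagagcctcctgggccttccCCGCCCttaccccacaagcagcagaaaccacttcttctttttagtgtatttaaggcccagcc

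The Cybb stretch held the CCAAT box from -56 to -52 and the ETS core, on the other strand, from 10 to 15, counted from the start site. Cyba held the GC box from -24 to -19 and again from -6 to -1. Ncf1 held the GC box, on the other strand, from -42 to -37. The full 300-base windows of these genes held no further match to the 4 motifs, and the TATA box was in none of the 3. Such matches are common: of 32851 promoters of this length, 28.3% held the ETS core, 37.4% the CCAAT box, 35.7% the GC box and 13.6% the TATA box. The share of G and C over the 300 bases was 35.3% for Cybb, 54.0% for Ncf1 and 60.7% for Cyba, and 3.98%, 53.5% and 72.2% of promoters lay lower. These are descriptions of letters and not of bound sites.

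In the build mm10, as the tables give positions, Cybb (gene ID 13058) spans chromosome X from 9435252 to 9487766 and Cyba (13057) chromosome 8 from 122424771 to 122432940, both on the minus strand. Ncf1 (17969) spans chromosome 5 from 134220053 to 134229628 on the minus strand, and Ncf4 (17972) chromosome 15 from 78244164 to 78262582 on the plus strand. The RefSeq start site used for Cybb lies inside the span the tables give. Cybb overlaps Gm33784 on the other strand, which was at 0 TPM in every sample. Ncf1 overlaps LOC115490142 on the other strand, at 1.46 to 2.92 TPM, and the sources used here do not say if strand was used in counting.

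The oxidase genes were abundant in these cells. Over the 9 samples, Cyba averaged 991 TPM and ranked 160th of the 13820 genes tested, and Cybb averaged 745 TPM and ranked 209th. Ncf1 averaged 334 TPM (439th) and Ncf4 203 TPM (756th). TPM is scaled for transcript length, so these levels can be set against each other. The order was Cyba, Cybb, Ncf1, Ncf4 in every one of the 9 samples, so the membrane pair stood above both cytosolic subunits throughout. Within each group, the ranges of neighbours in this order did not meet, and the nearest were Cyba and Cybb in PBS, with 994 TPM as the lowest Cyba sample and 953 TPM as the highest Cybb sample.

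The MSC-EV samples had less Ncf4 transcript than either other group, and it was the only member that passed the test. Cybb and Ncf1 were also below both other groups in each MSC-EV sample but did not pass, and Cyba overlapped with both. No member passed the test between HEK-EV and PBS. The comparisons of MSC-EV with PBS and with HEK-EV share the MSC-EV samples, and both vesicle groups share the PBS samples as their control.

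Cybb, the catalytic subunit, was at 730, 953 and 730 TPM in PBS replicates 1 to 3. It was at 888, 787 and 710 TPM in HEK-EV and at 623, 617 and 664 TPM in MSC-EV. The 3 MSC-EV samples lay below all 6 others, PBS replicate 2 was the highest, and PBS and HEK-EV overlapped. The means were 804 ± 129 TPM in PBS, 795 ± 89.5 TPM in HEK-EV and 635 ± 25.7 TPM in MSC-EV (SD, n = 3 each). On the log2(TPM + 1) scale, MSC-EV minus PBS was -0.33 (SE 0.115, 95% interval -0.59 to -0.07, limma adjusted p = 0.122). MSC-EV minus HEK-EV was -0.32 (SE 0.115, interval -0.58 to -0.06, limma adjusted p = 0.131). Neither passed the threshold of 0.05. Without PBS replicate 2, the difference from PBS was -0.20 (limma adjusted p = 0.348). Leaving out each sample in turn, it ranged from -0.39 to -0.20, and that from HEK-EV from -0.40 to -0.24.

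Cyba, the partner of Cybb in the membrane, was at 1012, 994 and 1081 TPM in PBS, at 949, 991 and 963 TPM in HEK-EV and at 997, 1031 and 900.5 TPM in MSC-EV. The MSC-EV samples overlapped with both other groups and held the lowest Cyba value of the 9. The 3 HEK-EV samples lay below the 3 PBS samples, with 991 TPM as the highest of one and 994 TPM as the lowest of the other. The means were 1029 ± 46.2, 968 ± 21.6 and 976 ± 67.6 TPM (SD, n = 3) in PBS, HEK-EV and MSC-EV. MSC-EV minus PBS was -0.08 (interval -0.23 to 0.07, limma adjusted p = 0.534). MSC-EV minus HEK-EV was 0.01 (interval -0.14 to 0.16, limma adjusted p = 0.946). Leaving out each sample in turn, they ranged from -0.12 to -0.02 and from -0.03 to 0.07.

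Ncf1, the organizer, was at 319, 341 and 381 TPM in PBS, at 379, 346 and 335 TPM in HEK-EV and at 304, 313 and 290 TPM in MSC-EV. All MSC-EV samples lay below all others, the nearest pair being 313 TPM in MSC-EV replicate 2 and 319 TPM in PBS replicate 1. The means were 347 ± 31.7, 354 ± 23.0 and 302 ± 11.5 TPM (SD, n = 3). MSC-EV minus PBS was -0.19 (SE 0.0761, interval -0.37 to -0.02, limma adjusted p = 0.163). MSC-EV minus HEK-EV was -0.22 (SE 0.0761, interval -0.40 to -0.05, limma adjusted p = 0.113). Without PBS replicate 3, the difference of Ncf1 from PBS was -0.12 (limma adjusted p = 0.403). Over single omissions it ranged from -0.25 to -0.12, and that from HEK-EV from -0.26 to -0.17. With the depth ratio as a covariate, the difference from HEK-EV was -0.29 and passed (limma adjusted p = 0.0398). That fit cannot separate depth from group, so no conclusion is drawn from the call.

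Ncf4, the phosphoinositide-binding subunit, was at 188, 239 and 241 TPM in PBS and at 250.3, 231 and 212 TPM in HEK-EV. It was at 145, 165 and 153 TPM in MSC-EV. The highest MSC-EV sample lay below the lowest PBS sample, which was PBS replicate 1, and further below the lowest HEK-EV sample. The means were 223 ± 29.6, 231 ± 19.2 and 154 ± 10.1 TPM (SD, n = 3). Ncf4 fell in MSC-EV by 0.52 on the log2 scale against PBS (SE 0.103, interval -0.75 to -0.29), a fold of 0.697, with a limma adjusted p of 0.0300. Against HEK-EV it fell by 0.58 (SE 0.103, interval -0.81 to -0.35), a fold of 0.669, with a limma adjusted p of 0.0233. In bulk RNA, fewer cells that carry a transcript and less of it per cell cannot be told apart.

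The Ncf4 difference kept its direction in each of the 19 alternatives, between -0.80 and -0.46 against PBS and between -0.70 and -0.51 against HEK-EV. The call was less steady, being lost in 12 of 19 alternatives against PBS (limma adjusted p from 0.0029 to 0.132) and in 9 of 19 against HEK-EV (0.0038 to 0.101). Against PBS it was lost without PBS replicate 2 (limma adjusted p = 0.132), PBS replicate 3 (0.103), MSC-EV replicate 1 (0.128), replicate 2 (0.0733) or replicate 3 (0.0568), or HEK-EV replicate 2 (0.0519). Against HEK-EV it was lost without HEK-EV replicate 1 (0.0666), replicate 2 (0.0586) or replicate 3 (0.0552), or MSC-EV replicate 1 (0.101) or replicate 2 (0.0680). Without PBS replicate 1, Ncf4 fell by 0.64 against PBS (limma adjusted p = 0.0029). Without both libraries rich in acinar transcripts the differences were -0.52 and -0.57, with limma adjusted p of 0.0942 and 0.0936, while Cybb was at -0.36 against both groups, Ncf1 at -0.17 and -0.21, and Cyba at -0.02 and 0.08. Over all genes, 706 passed against PBS with every library, and 1881 without PBS replicate 1, 5 without PBS replicate 2, 7 without PBS replicate 3, 23 without MSC-EV replicate 1, 54 without MSC-EV replicate 2, 303 without HEK-EV replicate 2 and 461 without MSC-EV replicate 3. Against HEK-EV, 817 passed with every library, 1384 without PBS replicate 1, 31 when HEK-EV replicate 3 was left out and 1 when HEK-EV replicate 1 was. None passed in limma without HEK-EV replicate 2, MSC-EV replicate 1 or MSC-EV replicate 2, where 2873, 2332 and 2482 genes had an unadjusted p under 0.05.

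Against PBS, 1 of 4 members passed as lower in MSC-EV and none as higher, where 3.25% of the genes tested passed as lower, 1.86% as higher and 5.11% in either direction. The MSC-EV samples lay below the PBS samples for 3 of 4 members (Cybb, Ncf1 and Ncf4), against 14.9% of all genes. Against HEK-EV, 1 of 4 passed as lower, where 4.4% of genes did so, 1.51% passed as higher and 5.91% in either direction, and the same 3 of 4 did not overlap, against 17.5% of genes. The members' median difference was -0.26 against PBS and -0.27 against HEK-EV, while the medians over all genes were 0.01 and -0.02.

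**Figure D1:**
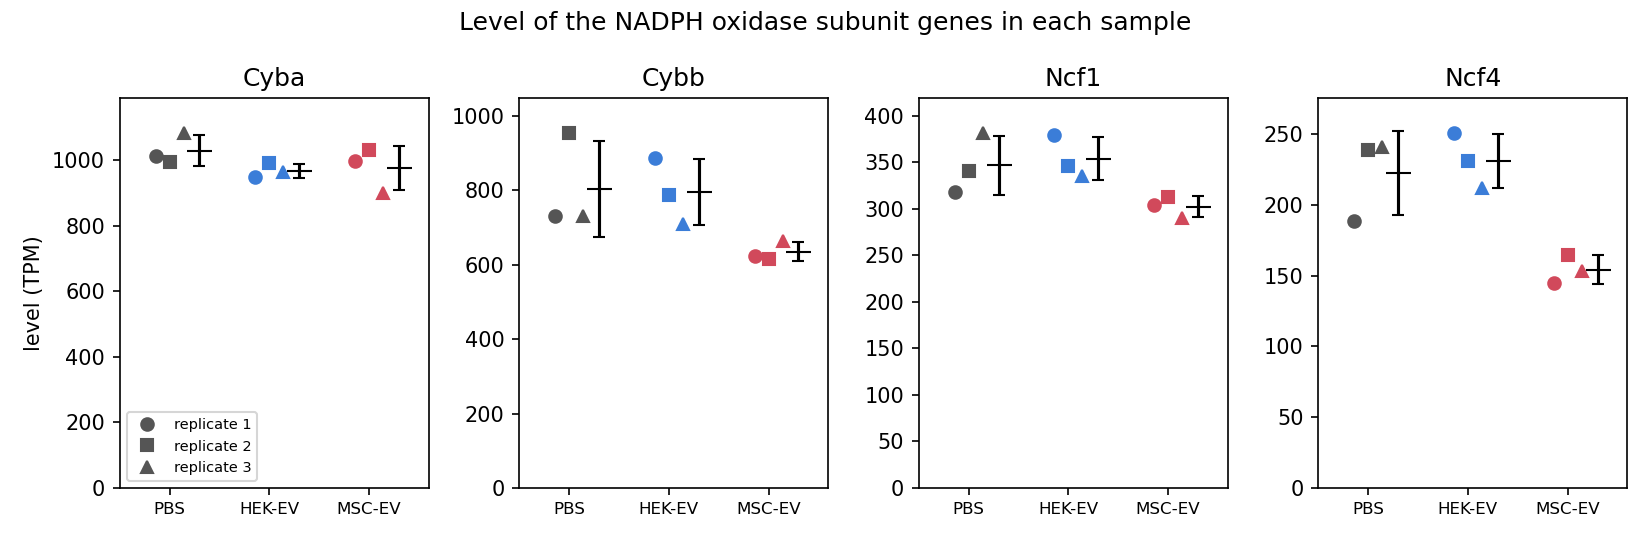
Level of Cyba, Cybb, Ncf1 and Ncf4 in TPM, from 0, in each of the 9 samples (circle, square and triangle for replicates 1, 2 and 3), with the group mean and SD as a bar beside the points. The MSC-EV points lie below all others for Cybb, Ncf1 and Ncf4. For Cyba they overlap with both other groups and include the lowest point.

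HEK-EV and PBS samples were close at all 4 members. HEK-EV minus PBS was -0.01 for Cybb (interval -0.27 to 0.25), -0.09 for Cyba (-0.24 to 0.06), 0.03 for Ncf1 (-0.14 to 0.20) and 0.06 for Ncf4 (-0.17 to 0.29), each with a limma adjusted p of 0.999. None of the 4 passed, nor did any gene tested (0%), while 495 genes (3.58%) had an unadjusted limma p under 0.05. Cyba was the 1 of 4 members whose HEK-EV samples lay below the PBS samples, as did 2.29% of all genes. Its difference was smaller without PBS replicate 3, the sample with the most Cyba.

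The balance between subunits can be read from ratios within a sample, which no scaling of that sample alters. Cyba over Ncf4 was 5.37, 4.16 and 4.49 in PBS, 3.79, 4.29 and 4.54 in HEK-EV and 6.90, 6.26 and 5.88 in MSC-EV. Each MSC-EV sample was above all 6 others, so p22phox transcript outnumbered p40phox transcript by more in MSC-EV. The means were 4.67 ± 0.625, 4.21 ± 0.385 and 6.34 ± 0.515 (SD, n = 3), and the log2 difference of MSC-EV was 0.45 (SE 0.128) from PBS and 0.59 (SE 0.102) from HEK-EV. Ncf1 over Ncf4 was 1.57 ± 0.133 in PBS, 1.53 ± 0.0423 in HEK-EV and 1.96 ± 0.121 in MSC-EV, again without overlap, with log2 differences of 0.33 and 0.36. Each of these 4 differences had an exact permutation p of 0.1, two-sided, which is the smallest that 3 against 3 samples can give, so the 0.05 threshold could not be reached. Without the 2 libraries rich in acinar transcripts, the Cyba over Ncf4 differences were 0.50 and 0.66 and those of Ncf1 over Ncf4 were 0.35 and 0.37. Without PBS replicate 1, the differences from PBS were 0.55 and 0.38. None of these omissions brought an overlap.

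The catalytic pair varied less evenly. Cybb over Cyba was 0.785 ± 0.152 in PBS, 0.822 ± 0.103 in HEK-EV and 0.654 ± 0.0738 in MSC-EV (SD, n = 3), and the groups overlapped (exact permutation p = 0.3 and 0.2 for MSC-EV against PBS and HEK-EV). Without the 2 libraries rich in acinar transcripts, MSC-EV lay below both groups in this ratio, with log2 differences of -0.34 and -0.44, from -0.25 and -0.33 with every library. Without PBS replicate 2, whose ratio was the highest, the difference from PBS was -0.10. Over single omissions it ranged from -0.35 to -0.10, and that from HEK-EV from -0.42 to -0.23. Cyba over Ncf1 was 3.23 ± 0.105 in MSC-EV, above every HEK-EV sample (2.75 ± 0.213, exact permutation p = 0.1) and overlapping with PBS (2.98 ± 0.178, exact permutation p = 0.2). The overlap with PBS ended without the 2 acinar-rich libraries (log2 difference 0.14) and without PBS replicate 1 (0.17), from 0.12 with every library. Cybb over Ncf4 was 4.13 ± 0.335 in MSC-EV, above every HEK-EV sample (3.44 ± 0.103, exact permutation p = 0.1) and overlapping with PBS (3.63 ± 0.521, exact permutation p = 0.3). Its difference from PBS was 0.19 with every library and 0.07 without PBS replicate 3. Cybb over Ncf1 overlapped in all 3 comparisons with every library, and without the 2 acinar-rich libraries MSC-EV lay below HEK-EV (-0.15, from -0.09). That difference was -0.05 without MSC-EV replicate 2 and -0.06 without HEK-EV replicate 1. The difference of this ratio from PBS was -0.14, and 0.0032 without PBS replicate 2. Of the 18 tests of 6 ratios, 6 had no overlap between groups, and the Benjamini-Hochberg adjusted p of those 6 exact permutation tests was 0.3. Without the 2 acinar-rich libraries, which leaves 2 samples each in HEK-EV and MSC-EV, 10 of the 18 had no overlap, and without PBS replicate 1, 7 had none.

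**Figure D2:**
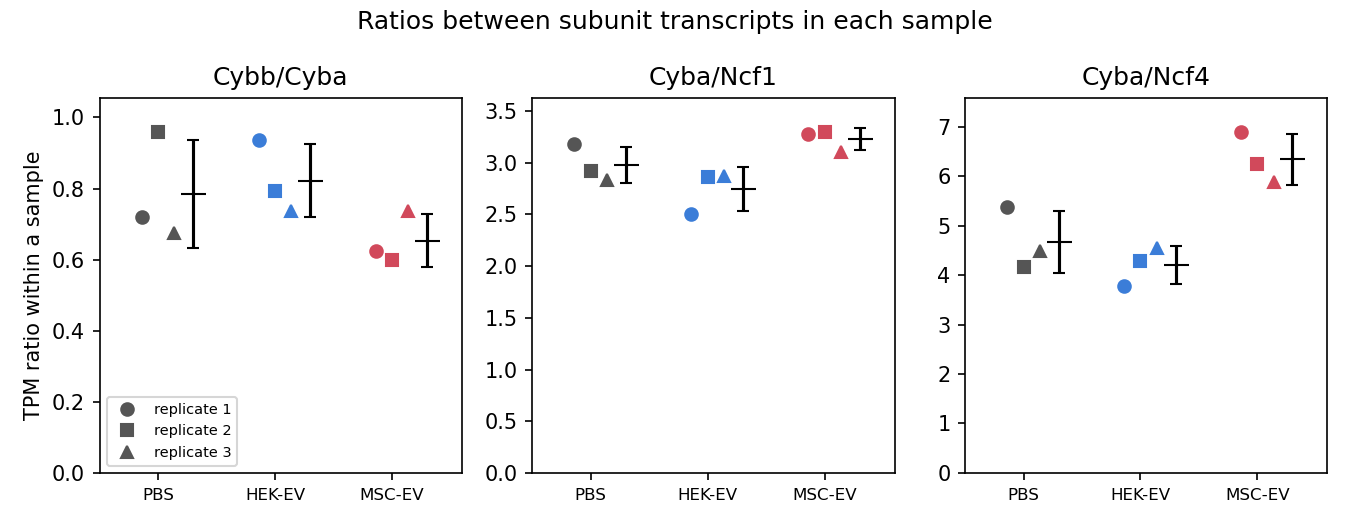
TPM ratio within each sample, from 0, for Cybb over Cyba, Cyba over Ncf1 and Cyba over Ncf4 (circle, square and triangle for replicates 1, 2 and 3), with the group mean and SD. The MSC-EV points of Cyba over Ncf4, 5.88 to 6.90, lie above all PBS and HEK-EV points, while those of Cybb over Cyba overlap with both groups.

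The genes whose course over the 9 samples was nearest to each member differed from member to member. Likeness was the root mean square difference of log2 values after each gene's mean was removed, among 9621 other genes with a mean of at least 5 TPM. Predicted genes, Riken clones and genes without a symbol were left out, so ranks hold among the rest. The nearest to Cybb were Il10ra, a chain of the interleukin-10 receptor (0.0427), Grk3 (0.0628) and Ilrun (0.0698). The nearest to Cyba were Fam118b (0.0314), Cox4i1, a subunit of cytochrome c oxidase (0.0332), and Dnpep (0.0338). The nearest to Ncf1 were Sf3b6 (0.0355), Tpd52 (0.0373) and Cd53 (0.0392). The nearest to Ncf4 were Cyp4f16 (0.0554), Fam107b (0.0572) and Nadk (0.0603), the kinase that makes NADP from NAD. Seen from Ncf4, Rac2 ranked 113th (0.114), Cybb 412th (0.161), Ncf1 584th (0.177) and Cyba 3336th (0.278). Rac2 was thus nearer to Ncf4 than any of the other members was. These samples share their libraries, and the likeness is a description.

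Beyond the members, 89 genes of the oxidase pathway were listed, of which 75 were tested. Against PBS, 2 passed as higher and 10 as lower in MSC-EV, and against HEK-EV 3 as higher and 22 as lower. Over all genes tested, 5.11% and 5.91% passed in these comparisons in either direction. None passed between HEK-EV and PBS. The higher calls of both MSC-EV comparisons include Sod3, which passed the filter only through MSC-EV. Leaving out a single library often ended these calls: of 12 named genes called against PBS, each was lost without PBS replicate 2, PBS replicate 3 or MSC-EV replicate 1, 11 without MSC-EV replicate 2, 5 without HEK-EV replicate 2, 4 without MSC-EV replicate 3, 2 without HEK-EV replicate 3, 1 without HEK-EV replicate 1 and none without PBS replicate 1. Of 19 named genes called against HEK-EV, each was lost without HEK-EV replicate 1 or 2 or MSC-EV replicate 1 or 2, 18 without HEK-EV replicate 3, 6 each without MSC-EV replicate 3 and PBS replicate 2, and 3 without PBS replicate 3. None of these named calls changed direction in any of the alternatives. Without the 2 libraries rich in acinar transcripts none of the 12 or 19 passed (limma adjusted p of 0.0532 to 0.147 and of 0.0641 to 0.161). Their differences were then 0.900 to 1.26 times those with every library against PBS and 0.948 to 1.38 times against HEK-EV. Hvcn1 was at 1.47 and 1.51, Nrros at -0.28 and -0.35, Fcgr2b at -0.58 and -0.58, and Gpx1 at -0.50 and -0.42. Without PBS replicate 1, the 12 differences from PBS were 1.01 to 1.22 times as large.

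Processing choices also ended calls among these named genes. Against PBS, all 12 were lost with the acinar split as a term, 10 with only the 6 samples compared, 7 on FPKM, 6 with no filter, 6 with the replicate number as a block, 4 with median-of-ratios scaling, 3 with the depth ratio as a covariate and 1 with a pseudocount of 0.1. Against HEK-EV, 14 of 19 were lost on FPKM, 13 with median-of-ratios scaling, 11 with no filter, 9 with the block, 8 with the acinar term, 2 with depth, and 1 each with the pseudocount and with only the 6 samples.

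Among 8 partners of the oxidase, all tested, 2 passed as lower and 1 as higher in MSC-EV against PBS, and the list's median difference was -0.26. Over all genes tested, 3.25% passed as lower and 1.86% as higher in this comparison. Nrros, a membrane protein of the endoplasmic reticulum that controls the amount of gp91phox protein, was at 291, 313 and 302 TPM in PBS and at 315, 290.0 and 320.2 TPM in HEK-EV. It was at 255, 243 and 247 TPM in MSC-EV, below every other sample, and fell by 0.28 against PBS (SE 0.0556, limma adjusted p = 0.0300) and by 0.31 against HEK-EV (limma adjusted p = 0.0233). Rap1a, a small GTPase that copurifies with the flavocytochrome, fell by 0.33 against PBS (limma adjusted p = 0.0470), from 239 ± 17.8 to 189.9 ± 10.9 TPM (SD, n = 3). Its relative Rap1b fell by 0.33 against HEK-EV (limma adjusted p = 0.0402), from 999 ± 47.8 to 796 ± 23.9 TPM (SD, n = 3).

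Hvcn1 went the other way. It encodes the voltage-gated proton channel that carries out the charge balance the oxidase needs while it pumps electrons. Its level was 15.7, 8.63 and 7.86 TPM in PBS, 11.9, 12.5 and 8.29 TPM in HEK-EV and 30.7, 29.5 and 20.3 TPM in MSC-EV. All 3 MSC-EV samples were above the other 6. It rose by a log2 difference of 1.29 against PBS (SE 0.255, limma adjusted p = 0.0300), a fold of 2.44, and of 1.23 against HEK-EV (limma adjusted p = 0.0298), a fold of 2.34. Hvcn1 overlaps Tctn1 on the other strand, and the sources used here do not say if strand was used in counting. Against HEK-EV this list had 3 genes lower and 1 higher of 8, with a median of -0.28. Over all genes tested, 4.4% passed as lower and 1.51% as higher there.

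The Rac switch, by which a GTP-loaded Rac protein turns the assembled oxidase on, had 1 gene lower of 12 in MSC-EV against PBS and 3 lower of 12 against HEK-EV, with medians of -0.14 and -0.18. The 1 of 12 is 8.33% of the list, near the 5.11% of all genes. The 3 of 12 is 25% of the list, where 5.91% of all genes passed. Rac2, the Rac of blood cells, was at 252, 308 and 339 TPM in PBS, at 309.8, 317 and 306 TPM in HEK-EV and at 232, 241 and 238 TPM in MSC-EV. Rac2 fell by 0.39 against HEK-EV (SE 0.0933, limma adjusted p = 0.0433), while its difference of -0.33 from PBS did not pass (limma adjusted p = 0.0760). Tiam1, an exchange factor that loads Rac, fell by 0.48 against PBS (limma adjusted p = 0.0441) and by 0.58 against HEK-EV (limma adjusted p = 0.0263). Prex1, another exchange factor, fell by 0.24 against HEK-EV (limma adjusted p = 0.0495).

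Of the kinases and lipases that act on the cytosolic subunits, 15 of 17 were tested. Of these, 1 of 15 passed as lower against PBS, Mapk14 (p38 alpha), which fell by 0.25 (limma adjusted p = 0.0350), and 5 of 15 passed as lower against HEK-EV. Those with the smallest p there were Mapk14, by 0.29 (limma adjusted p = 0.0241), Irak4, by 0.26 (0.0283), Prkcb, a protein kinase C, by 0.35 (0.0402), and Pla2g4a, a phospholipase A2, by 0.36 (0.0458). The medians were -0.12 and -0.19, and the 1 of 15 against PBS is 6.67% of the list, near the share over all genes. Against HEK-EV, 4.4% of all genes passed as lower.

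Of 18 receptors that prime or trigger the oxidase, 4 passed as lower against PBS (median -0.37) and 9 of 18 as lower against HEK-EV (median -0.39), and none as higher. Over all genes tested, 3.25% and 4.4% passed as lower in these comparisons. Fcgr2b, the inhibitory Fc gamma receptor, was at 342, 407 and 377 TPM in PBS, at 398, 384 and 352 TPM in HEK-EV and at 253, 248 and 277 TPM in MSC-EV. It fell by 0.53 against PBS (limma adjusted p = 0.0171) and by 0.54 against HEK-EV (limma adjusted p = 0.0205), and unlike the rest of the list it restrains activation. Itgb2, the beta chain that pairs with CD11b, fell by 0.49 against PBS (limma adjusted p = 0.0218), from 821 ± 62.3 to 586 ± 49.7 TPM (SD, n = 3), and by 0.54 against HEK-EV (limma adjusted p = 0.0205). The receptors of tumour necrosis factor, Tnfrsf1a and Tnfrsf1b, fell by 0.29 (limma adjusted p = 0.0348) and 0.48 (limma adjusted p = 0.0238) against PBS. Itgam, on whose product the cells were isolated, was at 229 ± 29.6 TPM in MSC-EV against 329.8 ± 44.3 TPM in PBS (SD, n = 3; limma adjusted p = 0.0553) and fell by 0.70 against HEK-EV (limma adjusted p = 0.0257).

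Of 11 transcription factors known to act on these subunit genes, 9 were tested and 1 passed as lower in each comparison of MSC-EV, with a median of -0.20 in both. That is 11.1% of the list, where 3.25% of all genes passed as lower against PBS and 4.4% against HEK-EV. Cebpb fell by 0.52 against PBS (limma adjusted p = 0.0273), and Rela fell by 0.25 against HEK-EV (limma adjusted p = 0.0341). Spi1, which encodes PU.1, did not pass, at -0.20 against PBS (limma adjusted p = 0.0546) and -0.20 against HEK-EV (limma adjusted p = 0.0501).

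Of 14 genes that use or remove the oxidase's products, 12 were tested, with medians of 0.05 against PBS and 0.04 against HEK-EV. Against PBS 1 passed as higher and 1 as lower, and against HEK-EV 2 as higher and 1 as lower. Sod3, which passed the filter only through MSC-EV, is the 1 higher against PBS and 1 of the 2 higher against HEK-EV. Over all genes tested, 1.86% passed as higher and 3.25% as lower against PBS, and 1.51% and 4.4% against HEK-EV. Gpx1, a glutathione peroxidase that removes hydrogen peroxide, fell by 0.48 against PBS (limma adjusted p = 0.0251), from 1649 ± 140 to 1186 ± 113 TPM (SD, n = 3), and by 0.41 against HEK-EV (limma adjusted p = 0.0308). Sod3, the extracellular superoxide dismutase, rose by 0.63 against PBS (limma adjusted p = 0.0359) and by 0.94 against HEK-EV (limma adjusted p = 0.0205), at a low level of 1.77 to 2.17 TPM in MSC-EV. With a pseudocount of 0.1 in place of 1, the Sod3 difference from PBS was 1.04 and did not pass (limma adjusted p = 0.0589). The MSC-EV levels themselves brought Sod3 past the filter, so no conclusion is drawn from its calls in either comparison. Gpx4, the peroxidase of lipid peroxides, rose by 0.32 against HEK-EV (limma adjusted p = 0.0341). Mpo and Nos2 stayed below the filter.

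Transcripts of the other NADPH oxidases were near 0 in these cells. Of 9 listed genes, Nox3, Duox1 and Duoxa1 were listed at 0 in every sample and 5 others reached at most 0.0590 TPM. Noxo1, an organizer of NOX1, was at 0.671 to 1.57 TPM, and its differences of 0.21 and 0.20 from PBS and HEK-EV did not pass (limma adjusted p = 0.515 and 0.525). Noxo1 overlaps Gfer on the other strand, and use of strand in counting is not stated. Between HEK-EV and PBS, the genes with the smallest unadjusted p of their lists were Sod3 (-0.31), Csf2rb (0.24), Cebpb (-0.21), Irak4 (0.14), Vav1 (0.09), Rap1b (0.06) and Noxo1 (0.01), all with a limma adjusted p of 0.999. The HEK-EV samples lay below the PBS samples for 2 of 12 tested genes that use or remove oxidase products, Sod3 among them. They lay above the PBS samples for 3 of 15 kinases and lipases, Irak4 among them, and for 1 of 18 receptors, Csf2rb. Of all 13820 genes tested, 317 lay below in this way and 762 above. Sod3 passed the filter only through MSC-EV, so no conclusion is drawn from it.

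**Figure D3:**
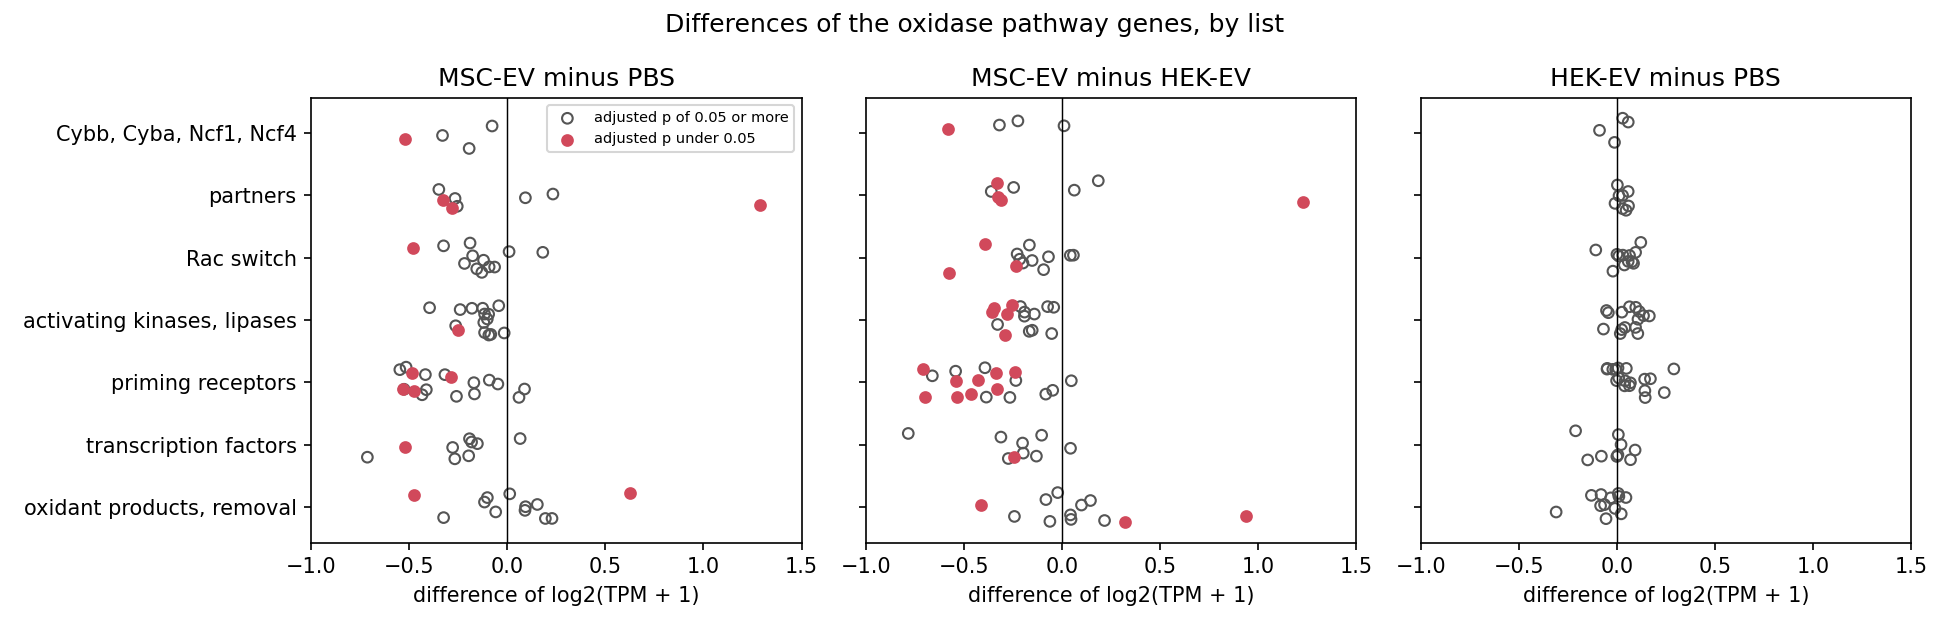
Difference of group means of log2(TPM + 1) for each tested gene of the oxidase pathway except Noxo1, 1 point per gene, by list (vertical position within a list is arbitrary), for MSC-EV minus PBS, MSC-EV minus HEK-EV and HEK-EV minus PBS. Filled points passed an adjusted p of 0.05 in limma: they lie mostly to the left of 0 in the comparisons of MSC-EV, and there are none between HEK-EV and PBS. To the right lie Hvcn1 at 1.29 and 1.23, Sod3 at 0.63 and 0.94 and, against HEK-EV, Gpx4 at 0.32.

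Markers of the myeloid cell types in the isolate differed between the same groups. For the counts below, 3.25% of all genes tested passed as lower and 1.86% as higher against PBS, and 4.4% and 1.51% against HEK-EV. Ptprc, which was checked beside Itgam and is in none of the lists, was at 515 to 647 TPM in PBS, 575 to 669 TPM in HEK-EV and 418 to 428 TPM in MSC-EV. It fell in MSC-EV by 0.46 against PBS (SE 0.0873, limma adjusted p = 0.0271) and by 0.53 against HEK-EV (limma adjusted p = 0.0207), next to 0.52 and 0.58 for Ncf4. The 10 monocyte markers summed to 6759 to 13107 TPM in PBS, 8422 to 10615 TPM in HEK-EV and 4199 to 5154 TPM in MSC-EV, and 6 of 10 passed as lower against PBS (median -1.03) and 5 of 10 against HEK-EV. The 12 macrophage markers summed to 8657 to 11562 TPM in PBS, 9095 to 10413 TPM in HEK-EV and 12370 to 13715 TPM in MSC-EV. Of these, 2 of 12 passed as higher against PBS (median 0.25) and 3 of 12 against HEK-EV (median 0.18). Against PBS the macrophage genes went both ways, from -0.85 for Cd163 to 1.80 for Gpnmb. The 17 neutrophil markers summed to 3521 to 6403, 5678 to 8028 and 3519 to 4384 TPM, with 1 of 15 tested higher against PBS, and 1 higher and 1 lower against HEK-EV. Elane and Mpo, made by neutrophil precursors, were below 1 TPM throughout.

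Of other cells, the hepatocyte list summed to 191 to 257 TPM in PBS, 136 to 279 TPM in HEK-EV and 356 to 474 TPM in MSC-EV, with 1 of 8 tested higher against PBS and 3 of 8 against HEK-EV. The biliary list summed to 745 to 1715, 903 to 1189 and 1790 to 2379 TPM, nearly all of it Spp1, which the macrophage list also holds. The other biliary genes summed to 12.8 to 17.4 TPM in PBS, 17.2 to 19.5 TPM in HEK-EV and 27.1 to 42.9 TPM in MSC-EV. Of the 8, 5 passed as higher in MSC-EV against both groups (Krt19, Epcam, Sox9, Krt18 and Cldn7). Over all genes tested, 1.86% passed as higher against PBS and 1.51% against HEK-EV. Sox9 and Cldn7 passed the filter only through MSC-EV, being at most 0.720 and 0.910 TPM in the other groups. No conclusion is drawn from the calls of Sox9 and Cldn7. The Kupffer list summed to 3224 to 3974, 2381 to 4415 and 1972 to 3211 TPM, and the endothelial list to 310 to 389, 210 to 449 and 136 to 264 TPM. The dendritic list summed to 94.6 to 127, 79.2 to 111 and 127 to 165 TPM. No gene of these 3 lists passed. Of the lymphocyte genes 1 of 3 tested passed as higher in MSC-EV against both groups, and the lymphocyte list stayed between 7.02 and 16.2 TPM, with Cd3e, Cd3g and Klrb1c below 1 TPM. The part of Ptprc and these markers in the differences of Ncf4, the other members and the pathway genes was not tested. With the depth ratio as a covariate, Ncf4 fell by 0.80 against PBS (limma adjusted p = 0.00719) and by 0.70 against HEK-EV (limma adjusted p = 0.0038). The ratio was highest in the MSC-EV samples, so depth and group cannot be told apart in this fit.

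**Figure D4:**
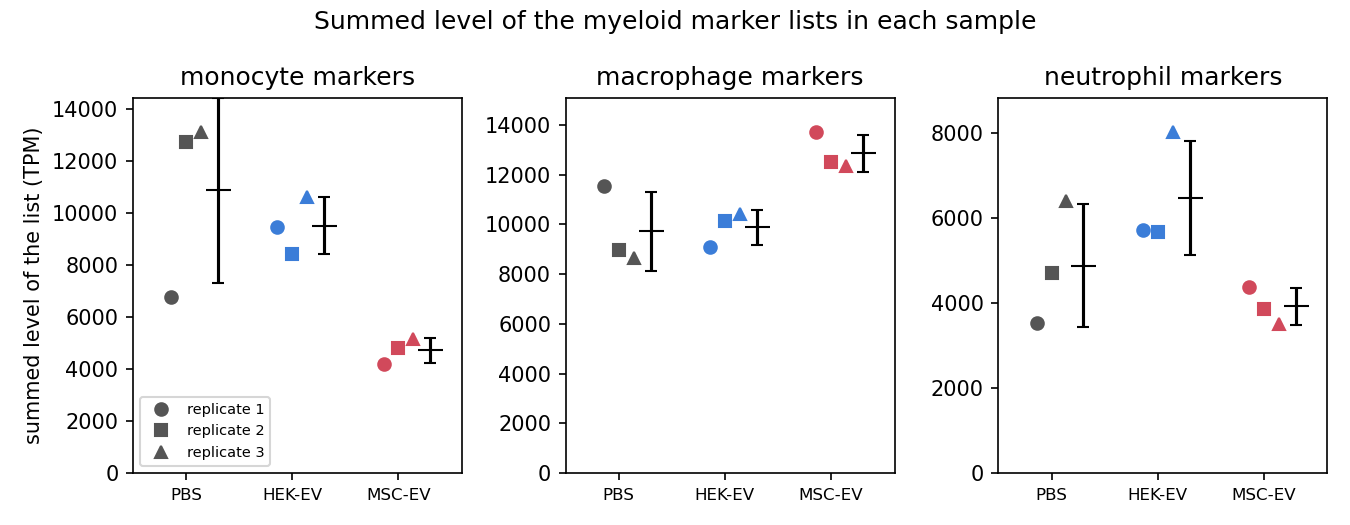
Summed TPM, from 0, of the monocyte (10 genes), macrophage (12) and neutrophil (17) marker lists in each sample (circle, square and triangle for replicates 1, 2 and 3), with the group mean and SD. The MSC-EV samples lie below all others in the monocyte sum and above all others in the macrophage sum, and overlap with PBS in the neutrophil sum.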

How the data were processed

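CD11b+ liver cells of 9 samples were sequenced after TruSeq Stranded mRNA preparation, per the labels' protocols. The submitters' processing notes name HISAT2 2.1.0, StringTie and mm10; filters and strand use are not given in the sources used here. Per the file headers, the tables also give coverage, the read signal along a gene. FPKM and TPM were deposited by the authors for each gene, and TPM sum to 1000000 in every sample. Gene IDs were matched to the RefSeq table of GRCm38.p6 (99.79% had a symbol; 96.4% of matched genes had the same start and end), and lines of the same ID were summed.

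The test was limma 3.58.1 (R 4.3.3, trend) on log2(TPM + 1), with all 9 samples in 1 fit, no covariate, and genes of at least 1 TPM in at least 3 samples. Adjusted p is Benjamini-Hochberg over 13820 genes, two-sided, with a threshold of 0.05. A fold change on this scale understates that of low genes. Intervals are 95% intervals of the fit. Python 3.11.15, with scipy 1.17.1, pandas 2.3.3, numpy 2.4.6 and matplotlib 3.10.9, made tables, exact permutation tests and figures. The test was also run on 5 simulated data sets of MSC-EV against PBS, of 13820 genes with 200 changed. It found 85% of genes changed 2-fold and 98.4% of those changed 4-fold, and 5.07% of its calls were false. Recovery of changes smaller than 2-fold, such as that of Ncf4, was not tested. Leaving out 1 sample moved the real calls against PBS to between 5 and 1881 genes. Whether the rates above hold for these samples was not tested.

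Named genes were the members, up to 4 called genes of smallest p per list and comparison (or the 1 of smallest p where none was called), and the 3 nearest profiles of each member. Spi1, Mpo, Nos2, Ptprc, Nox3, Duox1, Duoxa1, the marker genes and the overlapping genes are named outside that rule. Differences of named genes that missed the threshold are given where they help. The members and lists were chosen with earlier results of these data known. Alternatives tried were FPKM, median-of-ratios scaling, a pseudocount of 0.1, a filter of 5 TPM or none, only the 6 samples compared, a replicate block, a depth covariate and leaving out each sample. Some genes of the pathway lists are not reported here. Depth per sample is unknown, so no interval that needs counts was made.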

Additional observations from a re-analysis of the deposited data

How the results depend on the processing

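Against PBS, 706 genes were called (257 higher, 449 lower), and 361 with no filter, 167 with only the 6 samples, 1417 with a depth covariate, 21 with an acinar split (without Cela1) as a term, and 0 without the 2 acinar-rich libraries (2711 at an unadjusted p under 0.05). Against HEK-EV, 817 were called (209 higher, 608 lower), and 387, 459 on FPKM, 517 with median-of-ratios scaling, 1496 with depth and 0 without those libraries (2874 unadjusted). HEK-EV against PBS gave 4 with no filter. The higher and lower calls were 350 and 205 on FPKM and 288 and 318 with median-of-ratios scaling against PBS, and 273 and 186, and 243 and 274, against HEK-EV. The planned acinar split with Cela1 took all 9 samples and was not run. The split without Cela1 and the fits and ratios without the 2 libraries were chosen after seeing the data.

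The Ncf4 call against PBS was lost with no filter (-0.52, limma adjusted p = 0.0643), FPKM (-0.47, 0.0661), median-of-ratios scaling (-0.52, 0.0539), only the 6 samples (-0.52, 0.0521), the acinar term (-0.53, 0.126) and without the 2 acinar-rich libraries (-0.52, 0.0942). Against HEK-EV it was lost with no filter (-0.58, 0.0506), FPKM (-0.51, 0.0606), median-of-ratios scaling (-0.55, 0.0511) and without those libraries (-0.57, 0.0936). Ncf1 against HEK-EV was called with depth (-0.29), in a fit that cannot separate depth from group. Near 0, signs turned with depth for HEK-EV minus PBS of Ncf1 (-0.057), Ncf4 (-0.10) and Rap1b (-0.037) and MSC-EV minus HEK-EV of Cyba (-0.017). With median-of-ratios scaling HEK-EV minus PBS of Ncf1 was -0.0032 and of Noxo1 -0.010. Noxo1 was -0.0041 on FPKM and -0.067 with the acinar term and -0.070 without those libraries. The cause of these changes was not tested.

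The replicate numbers share no stated origin, and the deviations of same-numbered samples correlated between -0.50 and 0.06. With the replicate block, 404 genes were called against PBS and 448 against HEK-EV, and Ncf4 stayed called (limma adjusted p = 0.0492 and 0.0372). Of the named pathway calls, 6 of 12 against PBS and 9 of 19 against HEK-EV were lost with the block.

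Leaving out each sample, 5 to 1881 genes were called against PBS, 0 to 1384 against HEK-EV and 0 to 2 between HEK-EV and PBS. Ncf4 ranged from -0.64 to -0.46 against PBS and from -0.64 to -0.52 against HEK-EV, and Cyba against HEK-EV from -0.030 to 0.067. HEK-EV minus PBS ranged from -0.094 to 0.12 for Cybb, -0.029 to 0.10 for Ncf1, -0.057 to 0.12 for Ncf4, -0.019 to 0.11 for Rap1b and -0.14 to 0.17 for Noxo1. The log2 ratios of HEK-EV minus PBS ranged from -0.023 to 0.23 for Cybb over Cyba, -0.18 to 0.10 for Cybb over Ncf1, -0.19 to 0.0027 for Cybb over Ncf4 and -0.094 to 0.028 for Ncf1 over Ncf4, and that of MSC-EV minus PBS from -0.27 to 0.0032 for Cybb over Ncf1.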

Other observations

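Nos2, the inducible nitric oxide synthase, whose product reacts with superoxide, was at 11.4 TPM in MSC-EV replicate 1. It was at 0.270 and 0.311 TPM in the other MSC-EV samples and between 0.138 and 0.624 TPM in both other groups, so it did not reach the filter. It was singled out after its values were seen.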
